A study of Mus musculus with 6 samples.

Results

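The Slc25 family of mitochondrial carriers was followed in mouse intestinal organoids, a culture in which intestinal stem cells form a small closed epithelium. Members were the protein-coding genes of the count table whose mouse symbol is Slc25a followed by a number, 47 of 31227 genes in all and of 21993 protein-coding genes. They lie on 19 chromosomes, 4 of them on X. Bulk RNA-seq covered 6 libraries in 3 groups, with 2 libraries in each. The Smad4 KO+TGFb organoids were Smad4-deficient and received TGF-β at 0.5 nM, the Smad4 KO organoids were Smad4-deficient with no TGF-β named, and the WT organoids were wild type. All groups grew in a medium with EGF (50 ng/ml), Noggin (100 ng/ml) and R-spondin1 (500 ng/ml), and all titles carry 48 h. From the protocol, TGF-β may have been given for 48 h, or for 48 h and then for 2 more days. How Smad4 was inactivated is not given in the sources used here, and an organoid line or its origin cannot be told apart from the genotype. TGF-β was given only to Smad4-deficient organoids among the libraries analysed here, so a response to TGF-β cannot be compared between genotypes.

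Slc25 carriers are small membrane proteins that swap or import metabolites across the inner mitochondrial membrane, such as ADP and ATP, phosphate, citrate, amino acids, acylcarnitines and cofactors. Many members are also known by the substrate they carry, and several substrates are served by a pair of closely related genes. The intestinal epithelium relies on them in textbook accounts for ATP supply, for fatty acid oxidation in absorptive enterocytes and for making citrulline from glutamine. Smad4 joins the receptor-activated SMAD proteins of both TGF-β and BMP signalling and enters the nucleus with them.

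Levels are counts per 1e6 counts after TMM scaling (CPM), and each ± beside a log2 fold change is an approximate SE. It was worked back from that change and the F statistic of its test. The test was edgeR's quasi-likelihood test, and a gene was called when its p, adjusted by Benjamini and Hochberg's method over all 15503 genes tested, was under 0.05. Whether the replicates were separate cultures or animals is not in the labels, and the p-values therefore measure only the spread between these libraries, which may be technical. Libraries held 40.55 to 50.7 M deposited units, or about 10.1 to 12.7 M fragments, and replicates correlated across genes at 0.9705 to 0.9757 on the log2 scale. Within each group the 2 libraries were further apart than counting alone would make them (chi-square over its degrees of freedom 4.78 to 5.7, in fragments), and each was counted as 1 sample. Smad4, the targeted gene, had 25.19 and 29.52 CPM in Smad4 KO+TGFb, 21.66 and 23.07 CPM in Smad4 KO, and 99.37 and 109.46 CPM in WT. These values are summed over all Smad4 exons, so the deleted part cannot be seen in them.

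Markers of the organoids' cell types moved with the groups and are given here because carriers differ between cell types. All 5 epithelial identity markers were detected in every library, and their sum was 9360 and 9220 CPM in Smad4 KO+TGFb, 7070 and 7100 CPM in Smad4 KO, and 5130 and 5170 CPM in WT. Summed enterocyte markers (13 genes, none at 0) had 12000 and 12000 CPM in Smad4 KO+TGFb, 19400 and 19700 CPM in Smad4 KO, and 6150 and 6110 CPM in WT. Crypt base stem cell markers (10 genes, none at 0) summed to 2980 and 2960 CPM, 4350 and 4360 CPM, and 7340 and 7230 CPM in the same groups. Proliferation markers (12 genes, none at 0) summed to 1980 and 2000 CPM in Smad4 KO+TGFb, 2070 and 2080 CPM in Smad4 KO, and 2980 and 2930 CPM in WT. Paneth cell markers (7 genes) summed to 3250 and 3170 CPM in Smad4 KO+TGFb, 3130 and 3290 CPM in Smad4 KO, and 7980 and 8010 CPM in WT, and goblet cell markers (7 genes) to 1930 and 1910 CPM, 3800 and 3680 CPM, and 4620 and 4610 CPM in the same groups. Enteroendocrine markers (7 genes) summed to 380 and 363 CPM in Smad4 KO+TGFb, 384 and 402 CPM in Smad4 KO, and 928 and 936 CPM in WT, and tuft cell markers (5 genes, 1 at 0) to 10.2 and 9.85 CPM, 10.3 and 13.6 CPM, and 20.6 and 17.8 CPM in the same groups. Fibroblast markers (3 to 5 of 5 at 0) and endothelial markers (2 of 3 at 0) each stayed at or under 0.764 CPM in sum in every library, and 5 leukocyte markers summed to 4.56 to 6.59 CPM. Single markers did not all follow these sums. In Smad4 KO+TGFb against Smad4 KO, only 5 of 10 crypt base stem cell markers were called lower, and 0 were called higher. Of the Paneth cell markers, 2 (Ang4 and Mmp7) rose and 1 (Defa22) fell in the same comparison. In Smad4 KO against WT, 2 goblet cell markers (Clca1 and Zg16) rose and 4 fell. In Smad4 KO+TGFb against WT, 8 of 13 enterocyte markers rose and 2 (Slc5a1 and Anpep) fell, and 1 Paneth cell marker (Mmp7) rose and 6 fell. In bulk RNA, fewer cells of a type and less RNA per cell cannot be told apart, and the part of cell type makeup in the carrier results was not tested.

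Of the 47 carriers, 42 passed the filter on low counts and were tested, of which 22 passed in at least 1 comparison and 20 in none. Over all genes, 30.3% passed in Smad4 KO against WT, 16.3% in Smad4 KO+TGFb against Smad4 KO and 39.7% in Smad4 KO+TGFb against WT. The share of all genes that passed in at least 1 comparison was not counted, so the 22 carriers have no background beside them. Slc25a31, the ADP/ATP carrier known from mouse germ cells, Slc25a41, an ATP-Mg/phosphate carrier, and Slc25a54 were at 0 in all 6 libraries, where 3 fragments would be 0.229 to 0.305 CPM. Slc25a2, an ornithine carrier, ran from 0 to 0.3 CPM, and Slc25a21, the oxodicarboxylate carrier, from 0 to 0.46 CPM. Neither was tested. Among these, Slc25a54 lies 6461 bp from Slc25a24, and Slc25a41 lies 2056 bp from Slc25a23.

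Levels within the family spanned a wide range when divided by exon length. The ADP/ATP carrier Slc25a5 stood highest at 542 CPM per kb in Smad4 KO+TGFb, 624 CPM per kb in Smad4 KO and 502 CPM per kb in WT. The citrate carrier Slc25a1 followed at 119, 142 and 170 CPM per kb in the same groups, and the phosphate carrier Slc25a3 at 119, 130 and 98.6 CPM per kb. The oxoglutarate/malate carrier Slc25a11 (46.3, 59.4 and 47.4 CPM per kb) and the glutathione carrier Slc25a39 (36.8, 53.2 and 59.7 CPM per kb) came next over all libraries. In Smad4 KO+TGFb the ATP-Mg/phosphate carrier Slc25a24 stood above both at 67.9 CPM per kb, while it had 35.8 CPM per kb in Smad4 KO and 20.8 CPM per kb in WT. By total counts Slc25a5, Slc25a3, Slc25a1, Slc25a15 and Slc25a10 held 59.7% of the family's CPM.

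**Figure D1:**
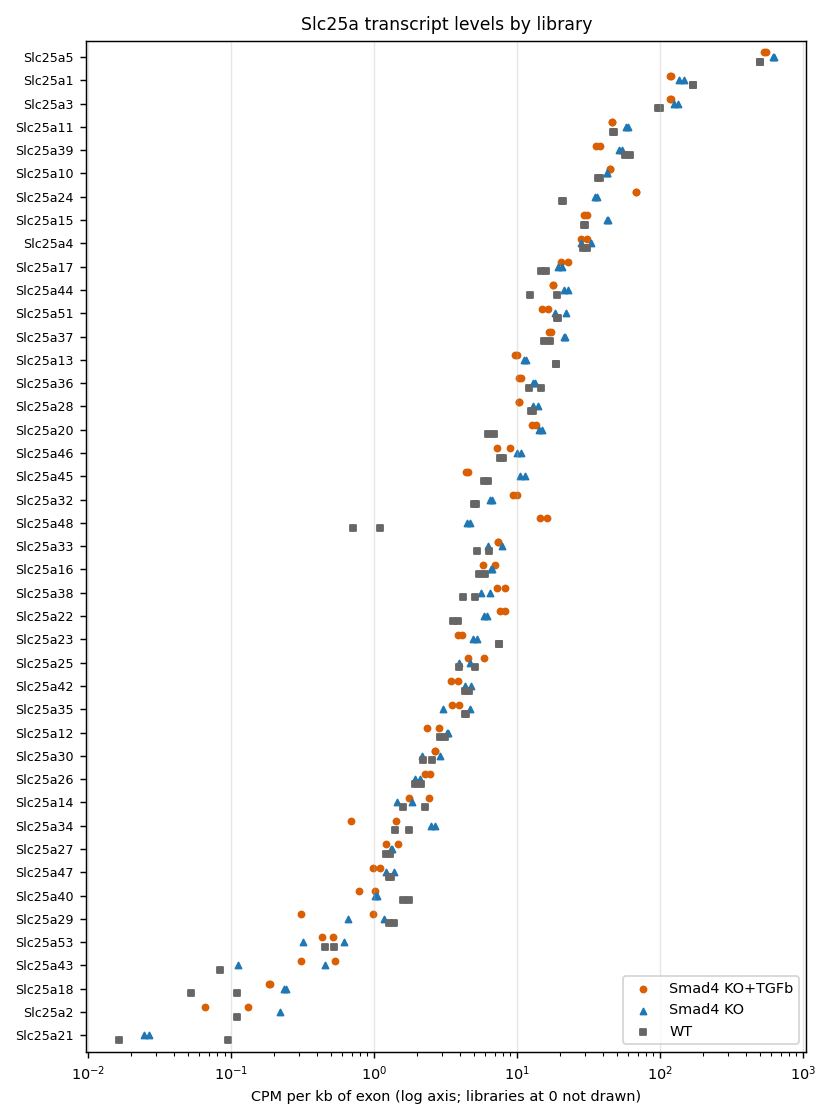
Levels of Slc25 carriers in CPM per kb of exon (log axis), with 1 point per library of Smad4 KO+TGFb, Smad4 KO and WT and libraries at 0 left out. Slc25a5 lies highest, with group means of 502 to 624 CPM per kb, and Slc25a48 and Slc25a24 show wide gaps between the groups.

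The summed level of all 47 carriers was 3650 and 3670 CPM in Smad4 KO+TGFb, 4010 and 4040 CPM in Smad4 KO, and 3380 and 3430 CPM in WT. The 3 groups did not overlap in this sum, which was highest in both Smad4 KO libraries. A few abundant carriers weigh most in it, since 5 of them held 59.7% of the family's CPM. Single carriers differed in direction, and the closely related Slc25a23 and Slc25a24 moved in opposite ways.

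In Smad4 KO against WT, 14 carriers rose and 4 fell. Those that rose included the acylcarnitine carrier Slc25a20 (2.22-fold), Slc25a48 (5.07-fold), Slc25a24 (1.72-fold), the glutamate carrier Slc25a22 (1.62-fold) and, by smaller amounts, the phosphate carrier Slc25a3 and the ADP/ATP carrier Slc25a5. Those that fell were the aspartate/glutamate carrier Slc25a13, the glutathione carrier Slc25a40, Slc25a23 and Slc25a1. Called carriers made 42.9% of the 42 tested (33.3% higher, 9.52% lower), beside a background over all genes of 30.3% (16.9% higher, 13.4% lower). Called changes over 1.5-fold made 16.7% of carriers and 15.5% of all genes. The median log2 fold change was 0.204 over carriers and -0.021 over all genes tested. The median level was 32.6 CPM over tested carriers and 22.1 CPM over all genes tested, and no test of the family as a whole was made.

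In Smad4 KO+TGFb against Smad4 KO, 4 carriers rose and 9 fell. Slc25a48, Slc25a24, the folate carrier Slc25a32 and Slc25a22 rose, while the ornithine carrier Slc25a15, Slc25a45, both mitoferrins, Slc25a39, Slc25a11, Slc25a1, Slc25a5 and Slc25a23 fell. Called carriers made 31% of the 42 (9.52% higher, 21.4% lower), beside 16.3% of all genes (7.78% higher, 8.48% lower). Called changes over 1.5-fold were 3 in number (7.14%, beside 8.04% of all genes), and the median log2 fold change was -0.181 over carriers and -0.008 over all genes. Without Smad4 KO+TGFb replicate 1, 8 carriers passed, of which 5 were lower, and over all genes 1504 passed and 848 were lower, fewer than the 2521 and 1315 with all libraries.

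In Smad4 KO+TGFb against WT, 10 carriers rose and 8 fell, which was 42.9% of those tested (23.8% higher, 19% lower) beside 39.7% of all genes (20.7% higher, 19% lower). Changes over 1.5-fold were called in 23.8% of carriers and 22.5% of all genes, and the median log2 fold changes were 0.071 and -0.021. Without Smad4 KO+TGFb replicate 1, 5 carriers and 2120 of all genes were called lower, beside 8 carriers and 2939 genes with all libraries. The groups' libraries did not overlap for 31 of the 42 carriers in this comparison (73.8%, beside 72.3% of all genes). They did not overlap for 29 carriers in Smad4 KO against WT (69%, beside 66.7%) and for 29 in Smad4 KO+TGFb against Smad4 KO (69%, beside 56.9%).

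The 3 comparisons share libraries, so their values are given side by side and not tested against each other. Slc25a22, Slc25a24, Slc25a32 and Slc25a48 passed as higher in all of them, and Slc25a1 and Slc25a23 passed as lower in all. Slc25a5, Slc25a11, Slc25a15, Slc25a37 and Slc25a45 were higher in Smad4 KO than in WT and lower in Smad4 KO+TGFb than in Smad4 KO. Slc25a3, Slc25a10, Slc25a17 and Slc25a20 were higher in both Smad4-deficient groups than in WT and did not pass between them.

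**Figure D2:**
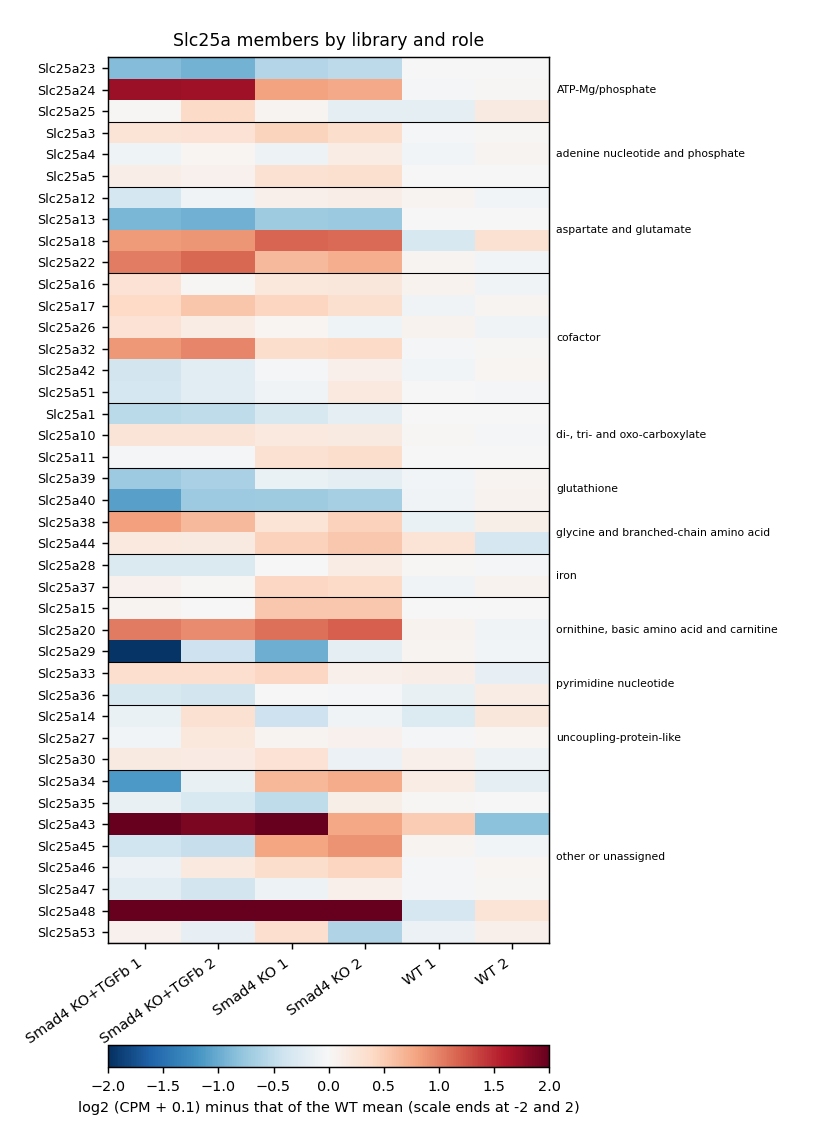
Expression of tested Slc25 carriers in each of the 6 libraries, as the log2 difference from the gene's WT mean (CPM with 0.1 added, color scale ending at -2 and 2). Columns run from Smad4 KO+TGFb through Smad4 KO to WT, and rows are grouped by the substrate carried. Slc25a48 and Slc25a24 differ most from WT among the called carriers, with log2 fold changes of 4.09 and 1.7 in Smad4 KO+TGFb against WT.

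The ATP-Mg/phosphate carriers held the clearest contrast between related genes. Slc25a23, Slc25a24 and Slc25a25 exchange ATP-Mg for phosphate, change the adenine nucleotide content of the matrix and are switched on by calcium. Slc25a24 (ENSMUSG00000040322, chromosome 3, 109123149 to 109168457, plus strand, GRCm38) had 233.97 and 232.27 CPM in Smad4 KO+TGFb, 124.54 and 121.29 CPM in Smad4 KO, and 70.57 and 72.45 CPM in WT. The groups stood far apart beside the gap between replicates. It rose 1.72-fold in Smad4 KO against WT (log2 fold change 0.78 ± 0.05, edgeR adjusted p = 8.94e-05). It rose a further 1.9-fold in Smad4 KO+TGFb against Smad4 KO (0.92 ± 0.05, edgeR adjusted p = 9.76e-05) and was 3.26-fold higher in Smad4 KO+TGFb than in WT (1.7 ± 0.05, edgeR adjusted p = 2.75e-06). Its relative Slc25a23 (ENSMUSG00000046329, chromosome 17, 57043711 to 57059863, minus strand) had 21.77 and 20.52 CPM in Smad4 KO+TGFb, 26.27 and 27.65 CPM in Smad4 KO, and 39.47 and 39.68 CPM in WT. It moved the other way, with log2 fold changes of -0.55 ± 0.08 in Smad4 KO against WT (edgeR adjusted p = 0.00393) and -0.9 ± 0.08 in Smad4 KO+TGFb against WT (edgeR adjusted p = 0.000336). Between the Smad4-deficient groups Slc25a23 fell by 0.35 on the log2 scale (edgeR adjusted p = 0.0372), a call that was lost without any 1 of the 6 libraries (edgeR adjusted p 0.0701 to 0.166). Slc25a25 had 35.95 and 46.42 CPM in Smad4 KO+TGFb, 36.78 and 30.97 CPM in Smad4 KO, and 30.8 and 39.91 CPM in WT, with overlapping libraries in every comparison and no call.

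As a share of the 3 genes' summed CPM per kb, Slc25a24 made 88.7% and 87.4% in Smad4 KO+TGFb, 79% and 79.4% in Smad4 KO, and 64.4% and 62.7% in WT. The shares did not overlap between groups and were not tested.

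**Figure D3:**
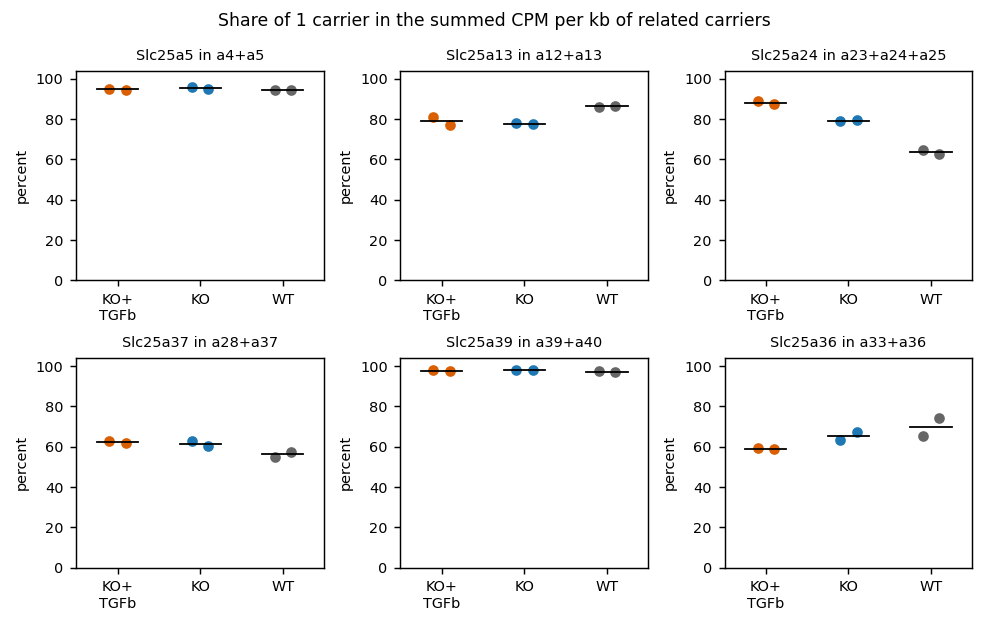
Share of each named carrier in the summed CPM per kb of its closely related carriers, in percent, with 1 point per library for Smad4 KO+TGFb, Smad4 KO and WT. Slc25a24 makes 88.7% and 87.4% in Smad4 KO+TGFb and 64.4% and 62.7% in WT, while Slc25a5 stays between 94.2% and 95.7%.

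Slc25a48, a carrier reported to take up choline into mitochondria, had the largest change of any called carrier. The gene (ENSMUSG00000021509, chromosome 13, 56438355 to 56474239, plus strand, GRCm38) had 55.22 and 48.83 CPM in Smad4 KO+TGFb, 15.09 and 15.83 CPM in Smad4 KO, and 2.41 and 3.72 CPM in WT. It was low in both WT libraries, and each step was far wider than the gap between replicates. The rise was 5.07-fold in Smad4 KO against WT (2.34 ± 0.2, edgeR adjusted p = 0.000384) and 3.36-fold in Smad4 KO+TGFb against Smad4 KO (1.75 ± 0.19, edgeR adjusted p = 0.00172). Smad4 KO+TGFb stood 17.1-fold above WT (4.09 ± 0.21, edgeR adjusted p = 2.83e-05).

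**Figure D4:**
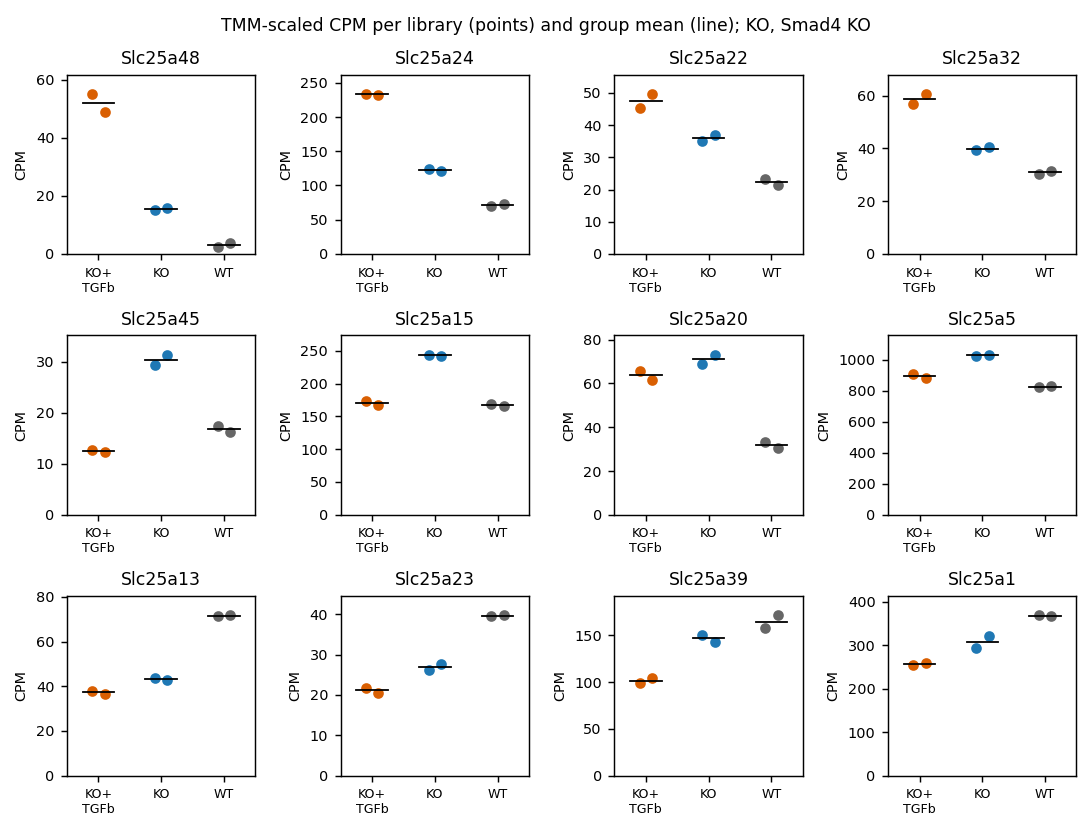
CPM of single carriers in each library, with Smad4 KO+TGFb at the left, Smad4 KO in the middle and WT at the right of each panel, points for libraries and short lines for group means. Slc25a48 reaches 55.22 CPM in Smad4 KO+TGFb and lies at 2.41 and 3.72 CPM in WT, and Slc25a45 peaks in Smad4 KO at 29.24 and 31.37 CPM.

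The promoters of Slc25a48 and Slc25a24, the carriers with the largest rises among those called higher in all comparisons, are printed beside those of Slc25a23 and Slc25a13, which fell in both Smad4-deficient groups against WT. Each runs from 250 bases before the start to 50 bases after it, 5′ to 3′ on the gene's strand, from RefSeq on GRCm38.p6. Positions are chr13:56438105-56438404 (plus) for Slc25a48, chr3:109122899-109123198 (plus) for Slc25a24, chr17:57059793-57060092 (minus) for Slc25a23 and chr6:6217124-6217423 (minus) for Slc25a13. Slc25a23 has another, overlapping RefSeq promoter, chr17:57059814-57060113 (minus), which is not printed and holds matches to the same motifs. Capitals mark matches on either strand to an E-box (CACGTG), an NRF1 core (GCATGC), a TEAD motif (CATTCC), a SMAD box (GTCTAG) or a CCAAT box (CCAAT).
Slc25a48: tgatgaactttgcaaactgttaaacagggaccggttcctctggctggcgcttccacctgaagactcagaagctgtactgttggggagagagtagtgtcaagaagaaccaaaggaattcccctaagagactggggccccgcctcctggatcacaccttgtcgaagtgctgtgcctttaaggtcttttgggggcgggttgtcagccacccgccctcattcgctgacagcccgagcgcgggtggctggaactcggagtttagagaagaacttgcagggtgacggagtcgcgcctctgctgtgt
Slc25a24: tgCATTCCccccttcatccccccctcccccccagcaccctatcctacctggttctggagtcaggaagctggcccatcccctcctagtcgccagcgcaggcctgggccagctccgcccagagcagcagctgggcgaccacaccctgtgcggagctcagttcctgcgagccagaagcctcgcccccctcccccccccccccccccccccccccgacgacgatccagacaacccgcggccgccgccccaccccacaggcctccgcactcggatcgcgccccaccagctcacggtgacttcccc
Slc25a23: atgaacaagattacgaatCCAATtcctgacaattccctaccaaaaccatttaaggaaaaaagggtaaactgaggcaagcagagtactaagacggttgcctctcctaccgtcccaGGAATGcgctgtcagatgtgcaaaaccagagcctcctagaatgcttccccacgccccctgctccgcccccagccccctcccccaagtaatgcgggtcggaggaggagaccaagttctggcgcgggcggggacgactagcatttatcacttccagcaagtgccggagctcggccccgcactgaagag
Slc25a13: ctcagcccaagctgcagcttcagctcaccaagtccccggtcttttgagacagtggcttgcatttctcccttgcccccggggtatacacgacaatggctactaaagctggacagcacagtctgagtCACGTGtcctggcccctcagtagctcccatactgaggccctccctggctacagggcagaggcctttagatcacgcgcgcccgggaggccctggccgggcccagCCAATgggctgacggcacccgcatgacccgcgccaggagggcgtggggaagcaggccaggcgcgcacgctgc
Slc25a48 held no match to the 5 motifs as spelled above, which says only that these letters are not in this window. The shorter core of the SMAD box, GTCT or AGAC, was not searched for, so no printed window is shown to lack it. The match in Slc25a24 is a TEAD motif 248 bases before the start, on the printed strand. Slc25a23 held a CCAAT box and a TEAD motif on the other strand, and Slc25a13 held an E-box and a CCAAT box. TEAD factors are the DNA-binding partners of Yap, which the title of the series names. The motif was present in Slc25a24, which rose, and in Slc25a23, which fell, and control of these carriers by Yap was not tested.

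Across the family, 36 of the 47 genes matched the RefSeq table, with 46 promoters between them. An E-box was found in 7 of the 36 genes (19.4%), beside 8.09% of all genes in the table. A CCAAT box was found in 19 (52.8%, beside 41.1%), a TEAD motif in 7 (19.4%, beside 16.6%) and an NRF1 core in 3 (8.33%, beside 8.93%). The SMAD box spelled GTCTAG was found in 2 (5.56%, beside 9.57%), and its shorter core was not counted. Carrier promoters were richer in G and C (median 59.4%, beside 52.7% over all 32851 promoters), and the letter matches were not corrected for this and are no evidence of binding.

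Of the carriers that supply the ATP synthase, the phosphate carrier and the main ADP/ATP carrier rose in Smad4 KO organoids. Slc25a3, which imports phosphate, had 657.68 and 667.27 CPM in Smad4 KO+TGFb, 745.52 and 700.25 CPM in Smad4 KO, and 540.27 and 554.13 CPM in WT. Both Smad4-deficient groups were above WT, by 1.32-fold for Smad4 KO (0.4 ± 0.04, edgeR adjusted p = 0.00048) and 1.21-fold for Smad4 KO+TGFb (0.28 ± 0.04, edgeR adjusted p = 0.00156). The difference between them, -0.13 ± 0.04 on the log2 scale, did not pass (edgeR adjusted p = 0.0686), but did without Smad4 KO replicate 2 (edgeR adjusted p = 0.0407). Slc25a5 exchanges ADP for ATP and had 904.65 and 879.77 CPM in Smad4 KO+TGFb, 1023.07 and 1032.64 CPM in Smad4 KO, and 823.97 and 828.85 CPM in WT. Its libraries did not overlap between groups, although the steps were small: 1.24-fold higher in Smad4 KO than in WT (edgeR adjusted p = 0.000218) and 1.15-fold lower in Smad4 KO+TGFb than in Smad4 KO (edgeR adjusted p = 0.00235). Its rise in Smad4 KO+TGFb against WT was 1.08-fold (edgeR adjusted p = 0.0114) and did not pass with upper quartile scaling (edgeR adjusted p = 0.243).

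Slc25a4, the ADP/ATP carrier best known from heart and muscle, had 66.58 and 72.82 CPM in Smad4 KO+TGFb, 65.9 and 78.1 CPM in Smad4 KO, and 68.12 and 72.97 CPM in WT. All groups overlapped, and its log2 fold changes were -0.05 to 0.03, each with an SE of 0.1. Slc25a5 accordingly made 94.2% to 95.7% of the summed CPM per kb of this pair in every library. Among 11 ATP synthase subunit genes, 5 rose and 0 fell in Smad4 KO against WT, and 0 rose and 7 fell in Smad4 KO+TGFb against Smad4 KO. Against WT, 0 rose and 3 fell in Smad4 KO+TGFb. Of 13 mitochondrially encoded genes, 6 rose and 3 fell in Smad4 KO against WT, and 3 rose and 7 fell in Smad4 KO+TGFb against WT. Of the same genes, 12 fell in Smad4 KO+TGFb against Smad4 KO and none rose, and mt-Nd1, a complex I subunit, had a log2 fold change of -0.36 ± 0.02 (edgeR adjusted p = 0.000127). In Smad4 KO against WT, mt-Atp6 was 5.64-fold higher, and mt-Atp8, which overlaps it, was 1.17-fold higher. How fragments were divided between them was not tested, and the size of the mt-Atp6 change is uncertain.

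The carriers of di- and tricarboxylates fell into different patterns. Slc25a1 exports citrate, which supplies acetyl-CoA for lipid synthesis in the cytosol, and had 255.14 and 259.76 CPM in Smad4 KO+TGFb, 293.97 and 321.19 CPM in Smad4 KO, and 368.83 and 368.57 CPM in WT. WT was highest and Smad4 KO+TGFb lowest without overlap. It fell 1.2-fold in Smad4 KO against WT (-0.26 ± 0.05, edgeR adjusted p = 0.00899) and 1.43-fold in Smad4 KO+TGFb against WT (-0.52 ± 0.05, edgeR adjusted p = 0.000358). The fall between the Smad4-deficient groups (-0.26 ± 0.05, edgeR adjusted p = 0.0161) did not pass without either Smad4 KO+TGFb library or without Smad4 KO replicate 2 (edgeR adjusted p = 0.0916, 0.0659 and 0.0536). Of 6 citrate-using genes, the cytosolic enzyme Acly, which splits citrate, also fell in all comparisons, by 0.31 on the log2 scale in Smad4 KO against WT (edgeR adjusted p = 0.000701). Me1, the cytosolic malic enzyme, rose in all, with a log2 fold change of 1.85 ± 0.05 in Smad4 KO against WT (edgeR adjusted p = 3.76e-06). On that list 2 genes rose and 1 fell in Smad4 KO against WT, 1 rose and 3 fell in Smad4 KO+TGFb against Smad4 KO, and 1 rose and 4 fell in Smad4 KO+TGFb against WT.

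Slc25a11, which exchanges oxoglutarate for malate, had 98.79 and 97.71 CPM in Smad4 KO+TGFb, 123.95 and 127.75 CPM in Smad4 KO, and 100.61 and 100.37 CPM in WT. Smad4 KO stood above both other groups, by 1.25-fold against WT (0.32 ± 0.05, edgeR adjusted p = 0.00399), and Smad4 KO+TGFb was 1.28-fold lower than Smad4 KO (-0.36 ± 0.05, edgeR adjusted p = 0.00474). Part of its exons (8.9%) overlap Rnf167. The dicarboxylate carrier Slc25a10 had 154.99 and 155.92 CPM in Smad4 KO+TGFb, 148.39 and 147.11 CPM in Smad4 KO, and 132.06 and 127.07 CPM in WT. It rose in Smad4 KO+TGFb against WT (1.2-fold, edgeR adjusted p = 0.0056). Its rise in Smad4 KO against WT (1.14-fold, edgeR adjusted p = 0.0259) was not called once any 1 of the 6 libraries was left out (edgeR adjusted p 0.051 to 0.114) or with upper quartile scaling (edgeR adjusted p = 0.0946).

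The aspartate/glutamate exchangers are part of the malate-aspartate shuttle, which moves reducing power from cytosolic NADH into the mitochondria. Slc25a13, also called citrin (ENSMUSG00000015112, chromosome 6, 6041218 to 6217173, minus strand), had 37.85 and 36.73 CPM in Smad4 KO+TGFb, 43.8 and 42.69 CPM in Smad4 KO, and 71.54 and 71.65 CPM in WT. Both WT libraries were far above the rest. The fall was 1.66-fold in Smad4 KO against WT (-0.73 ± 0.06, edgeR adjusted p = 0.000417) and 1.92-fold in Smad4 KO+TGFb against WT (-0.94 ± 0.06, edgeR adjusted p = 8.79e-05). Slc25a12, or aralar, had 17.24 and 21.09 CPM in Smad4 KO+TGFb, 23.75 and 24.21 CPM in Smad4 KO, and 22.92 and 21.22 CPM in WT, and passed in no comparison. Slc25a13 made 80.9% and 77.1% of the pair's CPM per kb in Smad4 KO+TGFb, 78.1% and 77.3% in Smad4 KO, and 85.8% and 86.7% in WT. Of 4 enzymes of the shuttle, 2 rose and 1 fell in Smad4 KO against WT, 3 fell in Smad4 KO+TGFb against Smad4 KO, and 1 rose and 2 fell in Smad4 KO+TGFb against WT. The malate dehydrogenase Mdh2 rose by 0.88 ± 0.03 on the log2 scale in Smad4 KO against WT (edgeR adjusted p = 5.23e-06).

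The glutamate carrier Slc25a22 rose where citrin fell. It had 45.37 and 49.72 CPM in Smad4 KO+TGFb, 35.07 and 36.94 CPM in Smad4 KO, and 23.15 and 21.36 CPM in WT. The libraries did not overlap, and the rise was 1.62-fold in Smad4 KO against WT (0.69 ± 0.09, edgeR adjusted p = 0.00207) and 2.14-fold in Smad4 KO+TGFb against WT (1.09 ± 0.09, edgeR adjusted p = 0.000195). Its rise in Smad4 KO+TGFb against Smad4 KO (0.4 ± 0.09, edgeR adjusted p = 0.0286) did not pass without any 1 of the 4 libraries compared (edgeR adjusted p 0.0614 to 0.155). Slc25a18, the other glutamate carrier, stayed near the floor, at 0.1 to 0.46 CPM.

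The ornithine carrier Slc25a15, which serves citrulline and ornithine exchange, was highest in Smad4 KO organoids. It had 173.4 and 166.84 CPM in Smad4 KO+TGFb, 244.01 and 242.38 CPM in Smad4 KO, and 168.4 and 165.4 CPM in WT. Smad4 KO stood apart, while Smad4 KO+TGFb and WT overlapped. It rose 1.46-fold in Smad4 KO against WT (0.54 ± 0.04, edgeR adjusted p = 0.000279) and fell 1.43-fold in Smad4 KO+TGFb against Smad4 KO (-0.52 ± 0.04, edgeR adjusted p = 0.000645). Smad4 KO+TGFb differed from WT by 0.03 ± 0.04 on the log2 scale (edgeR adjusted p = 0.66). Enzymes of the same pathway fell more often than they rose. Of 11 genes for arginine, ornithine and citrulline enzymes, 2 rose and 6 fell in Smad4 KO against WT, and 0 rose and 8 fell in Smad4 KO+TGFb against Smad4 KO. In Smad4 KO+TGFb against WT, 1 rose and 8 fell. The 2 that rose in Smad4 KO against WT were Arg2, a mitochondrial arginase that makes ornithine, and Nags, which makes the activator of Cps1. Both were called in the same directions as Slc25a15, with log2 fold changes of 1.77 and 0.86 in Smad4 KO against WT and of -1.63 and -1.17 in Smad4 KO+TGFb against Smad4 KO. Oat did not pass in Smad4 KO against WT (0.04 ± 0.02, edgeR adjusted p = 0.254). It fell by 0.68 on the log2 scale in Smad4 KO+TGFb against Smad4 KO (edgeR adjusted p = 2.37e-05). Cps1, which makes carbamoyl phosphate in the matrix, fell by 1.29 on the log2 scale in Smad4 KO against WT (edgeR adjusted p = 1.07e-06) and by 2.38 in Smad4 KO+TGFb against WT (edgeR adjusted p = 1.06e-07). Otc, which joins carbamoyl phosphate and ornithine to citrulline, fell by 0.35 and 1.87 in these comparisons (edgeR adjusted p = 0.00982 and 6.82e-06).

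The carnitine/acylcarnitine carrier Slc25a20, which brings fatty acids into the matrix for oxidation, rose in both Smad4-deficient groups. The gene (ENSMUSG00000032602, chromosome 9, 108662088 to 108684641, plus strand) had 65.8 and 61.6 CPM in Smad4 KO+TGFb, 68.9 and 73.17 CPM in Smad4 KO, and 33.48 and 30.6 CPM in WT. It was 2.22-fold higher in Smad4 KO than in WT (1.15 ± 0.08, edgeR adjusted p = 0.000159) and 1.99-fold higher in Smad4 KO+TGFb than in WT (0.99 ± 0.08, edgeR adjusted p = 0.000174). The 2 Smad4-deficient groups differed by -0.16 ± 0.08 (edgeR adjusted p = 0.251). Of 13 other genes of carnitine handling and fatty acid oxidation, 11 rose and 0 fell in Smad4 KO against WT, 0 rose and 7 fell in Smad4 KO+TGFb against Smad4 KO, and 9 rose and 1 fell in Smad4 KO+TGFb against WT. Cpt1a, which forms acylcarnitines at the outer membrane, rose by 1.3 ± 0.05 on the log2 scale in Smad4 KO against WT (edgeR adjusted p = 1.51e-05). Enterocyte markers, whose sums are given above, moved in the same directions (12 of 13 rose and 1 fell in Smad4 KO against WT, and 12 fell in Smad4 KO+TGFb against Smad4 KO), and their part in this result was not tested.

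Among 7 cofactor carriers, 2 rose against WT in both Smad4-deficient groups. Slc25a32, which carries folate or FAD, had 56.75 and 60.73 CPM in Smad4 KO+TGFb, 39.25 and 40.46 CPM in Smad4 KO, and 30.42 and 31.44 CPM in WT. It was lowest in WT and highest in Smad4 KO+TGFb, without overlap. It was 1.47-fold higher in Smad4 KO+TGFb than in Smad4 KO (0.56 ± 0.07, edgeR adjusted p = 0.00387) and 1.9-fold higher than in WT (0.93 ± 0.07, edgeR adjusted p = 0.000172). Its rise in Smad4 KO against WT (0.37 ± 0.07, edgeR adjusted p = 0.0122) was lost without Smad4 KO replicate 2 or WT replicate 1 (edgeR adjusted p = 0.058 and 0.0661). Of 7 one-carbon folate enzymes, by contrast, none rose in any comparison, and 6 fell in each Smad4-deficient group against WT. Mthfd2, a mitochondrial folate dehydrogenase, fell by 1.1 on the log2 scale in Smad4 KO against WT (edgeR adjusted p = 0.000109), and Aldh1l2 fell by 1.55 in Smad4 KO+TGFb against Smad4 KO (edgeR adjusted p = 0.000963).

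Slc25a17, a peroxisomal carrier of CoA, FAD and NAD+, had 57.86 and 64.72 CPM in Smad4 KO+TGFb, 59.02 and 55.06 CPM in Smad4 KO, and 42.03 and 45.68 CPM in WT. Both Smad4-deficient groups were above WT, by 1.4-fold for Smad4 KO+TGFb (0.48 ± 0.09, edgeR adjusted p = 0.00581). For Smad4 KO the rise was 1.3-fold (edgeR adjusted p = 0.0198) and was lost without Smad4 KO replicate 1 or WT replicate 1 (edgeR adjusted p = 0.095 and 0.102). The mitochondrial NAD+ carrier Slc25a51 had 83.2 and 90.6 CPM in Smad4 KO+TGFb, 101.35 and 121.78 CPM in Smad4 KO, and 106.78 and 104.46 CPM in WT. It was lowest in Smad4 KO+TGFb without overlap but passed in no comparison (edgeR adjusted p = 0.0513 against Smad4 KO and 0.0587 against WT, and 0.586 for Smad4 KO against WT). Without Smad4 KO replicate 1 the adjusted p in edgeR was 0.019 against Smad4 KO and 0.0204 against WT, and without Smad4 KO replicate 2 it was 0.0224 against WT. The fall in Slc25a51 also passed with all libraries in DESeq2 (adjusted p = 0.0071 against Smad4 KO and 0.0341 against WT), without the low-count filter (edgeR adjusted p = 0.034 and 0.0497) and with a replicate block (edgeR adjusted p = 0.048 and 0.0468). Against Smad4 KO alone it passed with a minimum of 1 CPM (edgeR adjusted p = 0.0468) and with values divided by 4 (0.0423), and against WT alone with upper quartile scaling (0.0276) and with only the 2 groups compared (0.0194). The CoA carriers Slc25a16 and Slc25a42 and the S-adenosylmethionine carrier Slc25a26 passed in no comparison, at 9.27 to 33.52 CPM across libraries.

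The mitoferrins, which import iron for heme and iron-sulfur clusters, both fell in Smad4 KO+TGFb against Smad4 KO. Slc25a37 (mitoferrin-1) had 104.53 and 100.29 CPM in Smad4 KO+TGFb, 130.54 and 128.35 CPM in Smad4 KO, and 93.85 and 102.93 CPM in WT. It rose 1.32-fold in Smad4 KO against WT (0.4 ± 0.06, edgeR adjusted p = 0.00477) and fell 1.26-fold in Smad4 KO+TGFb against Smad4 KO (-0.34 ± 0.06, edgeR adjusted p = 0.0147). Slc25a28 (mitoferrin-2) had 38.82 and 38.96 CPM in Smad4 KO+TGFb, 48.21 and 52.78 CPM in Smad4 KO, and 48.28 and 47.16 CPM in WT. It was lowest in Smad4 KO+TGFb, with log2 fold changes of -0.38 ± 0.08 against Smad4 KO (edgeR adjusted p = 0.0187) and -0.3 ± 0.08 against WT (edgeR adjusted p = 0.0217). The calls with TGF-β were lost when libraries were left out: for Slc25a37 the adjusted p against Smad4 KO in edgeR was 0.0598 to 0.0917 without any 1 of the 4 compared. For Slc25a28 it was 0.086 to 0.0937 against Smad4 KO without either Smad4 KO+TGFb library or Smad4 KO replicate 2, and 0.0733 to 0.101 against WT without any 1 of the 4. Of 9 genes of mitochondrial iron use, 1 rose and 1 fell in Smad4 KO against WT, 2 fell in Smad4 KO+TGFb against Smad4 KO, and 1 rose and 3 fell in Smad4 KO+TGFb against WT. Tfrc, the transferrin receptor, fell in all 3, by 0.93 on the log2 scale in Smad4 KO+TGFb against WT (edgeR adjusted p = 3.89e-06).

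Both glutathione carriers fell in Smad4 KO+TGFb against WT. Slc25a39 had 98.77 and 104.35 CPM in Smad4 KO+TGFb, 150.17 and 143.04 CPM in Smad4 KO, and 157.73 and 171.15 CPM in WT. It fell 1.44-fold in Smad4 KO+TGFb against Smad4 KO (-0.53 ± 0.06, edgeR adjusted p = 0.00269) and 1.62-fold against WT (-0.7 ± 0.06, edgeR adjusted p = 0.000301), while Smad4 KO against WT did not pass (-0.17 ± 0.06, edgeR adjusted p = 0.0984, and 0.0366 with upper quartile scaling). Slc25a40 had 6.57 and 8.5 CPM in Smad4 KO+TGFb, 8.53 and 8.85 CPM in Smad4 KO, and 13.44 and 14.79 CPM in WT. WT was highest for Slc25a40, which fell 1.87-fold in Smad4 KO+TGFb against WT (-0.9 ± 0.17, edgeR adjusted p = 0.00624). Its fall in Smad4 KO against WT (-0.7 ± 0.17, edgeR adjusted p = 0.0219) did not pass without any 1 of the 4 libraries compared (edgeR adjusted p 0.0619 to 0.102). Slc25a39 made 97.2% to 98.2% of the pair's CPM per kb in every library.

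Of the remaining amino acid carriers, 1 was called. The glycine carrier Slc25a38, needed for heme synthesis, had 22.6 and 20.02 CPM in Smad4 KO+TGFb, 15.45 and 17.72 CPM in Smad4 KO, and 11.61 and 13.96 CPM in WT. The groups lay in steps without overlap, and only Smad4 KO+TGFb against WT passed (1.67-fold, 0.74 ± 0.14, edgeR adjusted p = 0.00782). The branched-chain amino acid carrier Slc25a44 had 64.09 and 63.65 CPM in Smad4 KO+TGFb, 77.04 and 81.64 CPM in Smad4 KO, and 68.03 and 44.38 CPM in WT. Its WT libraries were far apart, and it passed in no comparison (0.5 ± 0.18, edgeR adjusted p = 0.089 in Smad4 KO against WT). Without WT replicate 1 it passed as higher, with log2 fold changes of 0.84 in Smad4 KO (edgeR adjusted p = 0.00301) and 0.53 in Smad4 KO+TGFb (edgeR adjusted p = 0.00828) against WT. Without WT replicate 1 or 2 it also passed as lower in Smad4 KO+TGFb than in Smad4 KO (edgeR adjusted p = 0.0362 and 0.0358), with the log2 fold change at -0.31. With all libraries, Slc25a44 passed in DESeq2 in Smad4 KO against WT (log2 fold change 0.5, adjusted p = 0.0205). It also passed in edgeR in Smad4 KO+TGFb against Smad4 KO when only these groups were fitted (-0.31, adjusted p = 0.0315).

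Of the pyrimidine nucleotide carriers, Slc25a36 had 102.91 and 99.54 CPM in Smad4 KO+TGFb, 128.94 and 125.13 CPM in Smad4 KO, and 115.85 and 142.52 CPM in WT. It was called lower in Smad4 KO+TGFb than in WT (1.28-fold, edgeR adjusted p = 0.0302), but not without either Smad4 KO+TGFb library or WT replicate 2 (edgeR adjusted p = 0.0955, 0.128 and 0.0827). Its relative Slc25a33, at 9.86 to 14.76 CPM, passed in no comparison, and 14.9% of its exons overlap another gene.

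Slc25a45, to which no substrate is given here, had 12.66 and 12.22 CPM in Smad4 KO+TGFb, 29.24 and 31.37 CPM in Smad4 KO, and 17.46 and 16.18 CPM in WT. The gene (ENSMUSG00000024818, chromosome 19, 5877808 to 5885878, plus strand) peaked in Smad4 KO and was lowest in Smad4 KO+TGFb, with no overlap. It rose 1.8-fold in Smad4 KO against WT (0.85 ± 0.1, edgeR adjusted p = 0.00146) and fell 2.44-fold in Smad4 KO+TGFb against Smad4 KO (-1.28 ± 0.1, edgeR adjusted p = 0.000521). Its fall in Smad4 KO+TGFb against WT (-0.44 ± 0.1, edgeR adjusted p = 0.0165) was lost without either Smad4 KO+TGFb library or WT replicate 1 (edgeR adjusted p = 0.0576, 0.0744 and 0.0837). Slc25a46, an outer membrane member that acts in mitochondrial dynamics, had 39.42 and 48.54 CPM in Smad4 KO+TGFb, 54.44 and 57.53 CPM in Smad4 KO, and 41.63 and 43.58 CPM in WT. Smad4 KO was highest, and its rise against WT (1.31-fold, edgeR adjusted p = 0.0371) was lost without any 1 of the 4 libraries compared (edgeR adjusted p 0.0896 to 0.155) and with upper quartile scaling (0.0675). Without Smad4 KO+TGFb replicate 2 it was called lower in Smad4 KO+TGFb than in Smad4 KO (log2 fold change -0.51, edgeR adjusted p = 0.0336), as it was with all libraries in DESeq2 (-0.34, adjusted p = 0.0449).

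**Figure D5:**
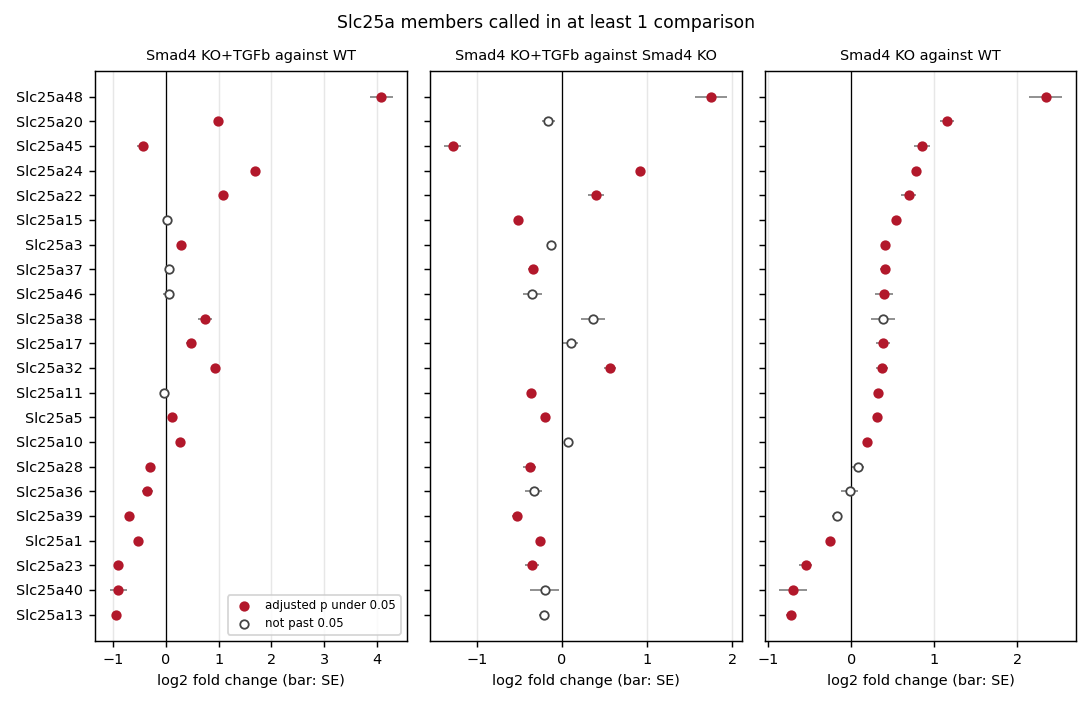
Log2 fold changes, with their SE as bars, of the 22 carriers called in at least 1 comparison, in a panel for each comparison. Filled points passed at an adjusted p under 0.05. Slc25a48 reaches 4.09 in Smad4 KO+TGFb against WT, and Slc25a45 lies at 0.85 in Smad4 KO against WT and at -1.28 in Smad4 KO+TGFb against Smad4 KO.

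The uncoupling-protein-like members Slc25a14, Slc25a27 and Slc25a30 passed in no comparison, at 3.41 to 13.29 CPM. Slc25a35 had 11.25 to 17.34 CPM, with 31.3% of its exons overlapping Rangrf on the opposite strand, and Slc25a47 and Slc25a53 had 2.53 to 4.91 CPM. Slc25a34 had 1.85 and 3.81 CPM in Smad4 KO+TGFb, 6.74 and 7.11 CPM in Smad4 KO, and 4.72 and 3.74 CPM in WT, and its log2 fold change of -1.29 ± 0.35 in Smad4 KO+TGFb against Smad4 KO did not pass (edgeR adjusted p = 0.0572). The basic amino acid carrier Slc25a29 ran from 0.81 to 3.59 CPM. Slc25a43 was at 0.95 and 0.55 CPM in Smad4 KO+TGFb, 0.81 and 0.2 CPM in Smad4 KO, and 0.15 and 0 CPM in WT. Its WT libraries together lay under the floor of 3 fragments, so no fold is given.

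Relatives of the family under other symbols were followed for comparison. Ucp2, an uncoupling protein, rose by 0.62 ± 0.04 on the log2 scale in Smad4 KO against WT (edgeR adjusted p = 0.000132) and fell by 0.34 in Smad4 KO+TGFb against Smad4 KO (edgeR adjusted p = 0.00285). Mtch2, an outer membrane member, rose by 0.38 ± 0.04 and fell by 0.32 in the same comparisons (edgeR adjusted p = 0.000991 and 0.00375). Of 19 tested genes for other inner membrane transport, 7 rose and 0 fell in Smad4 KO against WT, 1 rose and 3 fell in Smad4 KO+TGFb against Smad4 KO, and 7 rose and 3 fell in Smad4 KO+TGFb against WT. Sfxn3, a sideroflexin, rose in all 3, by 1.35 ± 0.1 in Smad4 KO+TGFb against WT (edgeR adjusted p = 0.000109). The calcium uniporter Mcu rose by 0.49 ± 0.06 in Smad4 KO against WT (edgeR adjusted p = 0.00147).

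The machinery that brings carriers into the inner membrane was followed as well. Of 13 import genes of the TOM and TIM22 complexes, 1 rose and 3 fell in Smad4 KO against WT, 0 rose and 1 fell in Smad4 KO+TGFb against Smad4 KO, and 1 rose and 6 fell in Smad4 KO+TGFb against WT. The receptor Tomm20 fell by 0.28 on the log2 scale in Smad4 KO against WT (edgeR adjusted p = 0.0045). Of 11 genes used as measures of mitochondrial content, 1 rose and 5 fell in Smad4 KO against WT, 0 rose and 3 fell in Smad4 KO+TGFb against Smad4 KO, and 1 rose and 7 fell in Smad4 KO+TGFb against WT. Their summed level was 2830 and 2830 CPM in Smad4 KO+TGFb, 3100 and 3140 CPM in Smad4 KO, and 3500 and 3450 CPM in WT. The carriers' sum was lowest in WT, although their median log2 fold change in Smad4 KO+TGFb against WT was only 0.071. The order of the groups was not the same in all mitochondrial sums. ATP synthase subunits summed to 4970 and 4990 CPM in Smad4 KO+TGFb, 5740 and 5830 CPM in Smad4 KO, and 5360 and 5210 CPM in WT. The import genes summed to 930 and 945 CPM, 962 and 980 CPM, and 1020 and 1030 CPM in the same groups.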

How the data were processed

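RNA-seq was measured in 6 organoid libraries, grouped by their titles. The authors deposited estimated counts per Ensembl gene as whole numbers, which were used as they stand. The submitters' processing notes name StringTie 1.3.3b, HISAT2 2.1.0, SAMtools 1.9 and FastQC 0.11.9, and the build GRCm38 (mm10). Sources used here do not give the annotation release, strand setting or read length. Multiples of 4 made 42.3% of values between 1 and 24, where an even spread would give 25%, so a fragment was counted as about 4 units. That is inferred, and fragment totals and the floor of 3 fragments (12 units over a group) rest on it and cover counting error only. Without strand, a gene and its antisense partner cannot be told apart, and StringTie divides fragments between overlapping or near-identical genes: 14 carriers share exon sequence with another annotated gene, 2 of them over more than 10%.

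In R 4.3.3, filterByExpr left 15503 genes and libraries were scaled by TMM. edgeR 4.0.16's quasi-likelihood test (2-sided) was fitted to all 6 libraries with group alone in the model (3 residual degrees of freedom), with Benjamini-Hochberg adjustment over all genes. One of the carriers is counted but not reported here by name. The test was checked on simulated data. Exon lengths and positions are from GENCODE vM21, and promoters from RefSeq. The 14 alternatives covered scaling, filters, DESeq2 1.42.0 (Wald test), a replicate block, pairs of groups alone, values divided by 4 and each library left out. Members and lists were chosen with earlier results of these data known. Values in every library are given for the up to 12 called carriers with the largest change in each comparison, the 5 highest per kb of exon and the 3 most abundant without a call; others were added after their values were seen.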

Additional observations from a re-analysis of the deposited data

How the results depend on the processing

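Of the carriers called, 13 of 18 passed under all 14 alternatives in Smad4 KO against WT, 8 of 13 in Smad4 KO+TGFb against Smad4 KO and 14 of 18 in Smad4 KO+TGFb against WT. With each library left out in turn, the carriers called numbered 8 to 14 (5 to 10 lower) in Smad4 KO+TGFb against Smad4 KO, and 5 to 9 were lower in Smad4 KO+TGFb against WT. Over all genes, 1504 to 2304 passed in Smad4 KO+TGFb against Smad4 KO (2521 with all libraries), 656 to 1108 higher and 848 to 1196 lower, and 1166 to 1867 were lower in Smad4 KO against WT (2084 with all). The cause was not tested beyond the fewer samples. The counts moved by less than 1.5 times under every other alternative.

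Some carriers with no call changed sign. Under upper quartile scaling the log2 fold change was -0.04 for Slc25a4 in Smad4 KO against WT. In Smad4 KO+TGFb against WT it was -0.04 for Slc25a15, -0.01 for Slc25a37 and -0.03 for Slc25a46. With single libraries left out, Slc25a4 ran from -0.1 to 0.15 in Smad4 KO against WT, from -0.16 to 0.08 in Smad4 KO+TGFb against Smad4 KO and from -0.08 to 0.05 in Smad4 KO+TGFb against WT. Slc25a51 ran from -0.06 to 0.21 in Smad4 KO against WT. In Smad4 KO+TGFb against WT, Slc25a37 ran from -0.004 to 0.13, Slc25a44 from -0.09 to 0.53 and Slc25a46 from -0.11 to 0.19.

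Same-numbered libraries did not deviate together (correlations 0.012, 0.014 and 0.001), so the numbers were not taken as pairs. With a replicate block, 17, 12 and 19 carriers passed in Smad4 KO against WT, Smad4 KO+TGFb against Smad4 KO and Smad4 KO+TGFb against WT. Slc25a10 (edgeR adjusted p = 0.0521) in the first and Slc25a22 and Slc25a23 (0.0548 and 0.0732) in the second were no longer called, while Slc25a51 was called lower in the second (0.048) and in the third (0.0468). With 2 libraries per group, differences in carriers of few CPM, such as Slc25a18, Slc25a34 and Slc25a43, could not be resolved.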
